A study of Mus musculus with 4 samples.

Results

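The solute carriers of family 25 (gene names beginning Slc25a) were followed in RNA from the tibialis anterior, a fast muscle at the front of the shin, of C57BL/6 mice at postnatal day 21. Members were every gene whose name fits that pattern in the 4 library files: 47 rows were found, 2 of them (Slc25a31 and Slc25a47) were listed at 0 RPKM in every library and were left out, and 45 members remained of 18959 gene names above 0 in at least 1 library. RPKM counts the reads per kilobase of gene, relative to all mapped reads of the library. The Nf1-KO group (genotype Nf1flox/flox/Myf5+, both alleles of Nf1 floxed) and the Het group (Nf1flox/+/Myf5+, 1 allele floxed) had 2 libraries each, so the control also carries a floxed allele and the Myf5 element. Nf1 encodes neurofibromin, which turns off the GTPase Ras. Myf5 is active in muscle precursors, and the labels do not spell out which Myf5 allele was used. They also do not say whether the libraries came from separate animals, so the p-values measure only the spread between these libraries, which may be technical. Whole muscle was taken, so RNA of cells outside the muscle lineage is included, and fewer cells of a type cannot be told apart from less RNA per cell.

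Slc25 carriers are small membrane proteins, nearly all of them in the inner mitochondrial membrane, that exchange one solute for another. They bring ADP, phosphate, carboxylic acids, amino acids, acylcarnitines and cofactors into the matrix and send ATP and other products out. In muscle, the ADP/ATP carrier is among the most abundant proteins of the inner membrane, because most of the ATP made in mitochondria is spent in the cytosol. Carriers of aspartate, glutamate and oxoglutarate also take part in the malate-aspartate shuttle, which passes the reducing power of cytosolic NADH into mitochondria.

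Nf1 itself held 1.09 and 1.01 RPKM in Het and, in the libraries labelled Nf1-KO, 0.89 and 0.85 RPKM, so the labelled groups did not overlap, though the gap was small. The values of a library summed to between 532315 and 547144 RPKM. The marker genes of muscle fibres dominated every library, with 8 markers summing to 50700 and 50880 RPKM in Het and to 43600 and 43170 RPKM in Nf1-KO (2 called higher, 6 lower). Fibroblast markers summed to between 70.24 and 72.43 RPKM in Het and to 107.6 and 108 RPKM in Nf1-KO, Schwann cell markers to 10.45 and 10.54 against 25.43 and 23.8 RPKM, adipocyte markers to 8.29 and 9.47 against 20.02 and 20.6 RPKM, and immune markers to 2.12 and 2.86 against 6.38 and 5.83 RPKM. Every one of the 4 fibroblast and 5 Schwann cell markers was called higher, as were 3 of 3 tested immune markers and 2 of 3 tested adipocyte markers. Of all 10690 genes in the fit described below, 24.9% were called higher and 25.4% lower. The adipocyte sum rested on Cfd (5.87 and 6.8 RPKM in Het, 17.34 and 17.71 RPKM in Nf1-KO): without it the other 5 markers summed to 2.42 and 2.67 against 2.68 and 2.89 RPKM, and the defining marker Adipoq was at 1.11 and 1.31 against 0.95 and 1.05 RPKM (not called). These sums moved with the genotype in the same libraries as the carriers below, and their part in the carriers' differences was not tested.

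Of the 45 carriers, 36 reached the filter of 0.5 RPKM in at least 2 libraries and were tested. With limma on log2(RPKM + 1), 15 of the 36 (41.7%) were called higher in Nf1-KO at an adjusted p under 0.05, where 24.9% of the 10690 genes tested were, and 10 (27.8%) were called lower, where 25.4% of all genes were. The remaining 11 did not pass. The largest increase was in Slc25a34, a carrier with no settled substrate, followed by the glutamate carrier Slc25a22, the acylcarnitine carrier Slc25a20 and the ATP-Mg/phosphate carrier Slc25a25. Decreases were smaller, such as those of the mitochondrial iron importer Slc25a37 and the pyrimidine nucleotide carrier Slc25a36. The count of higher members was 15 also with values as deposited, not scaled between libraries, and with no filter on low values. With no filter these were not the same members: Slc25a17 lost its call (limma adjusted p 0.057) and Slc25a13, otherwise not tested, was called (0.014). The count of lower members was 5 with values as deposited and 2 with no filter. With values as deposited, 66.6% of all called genes were higher against 49.5% after scaling. The count of lower members was 6 or 7 with any 1 library left out. On the log2 scale, the tested members had a median difference of -0.019 and all genes one of 0.001.

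Both Nf1-KO libraries lay above both Het libraries in 16 tested members by the scaled values, and below both in 17, with 3 overlapping. Over all tested genes these 2 outcomes made up 38.2% and 38.1%. An exact permutation test of 1 gene cannot go below p = 0.333 with 2 libraries against 2, so a call here depends on the spread that limma pools over the whole table. The median coefficient of variation between replicates over the tested members was 3.53% in Het and 3.36% in Nf1-KO.

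**Figure D1:**
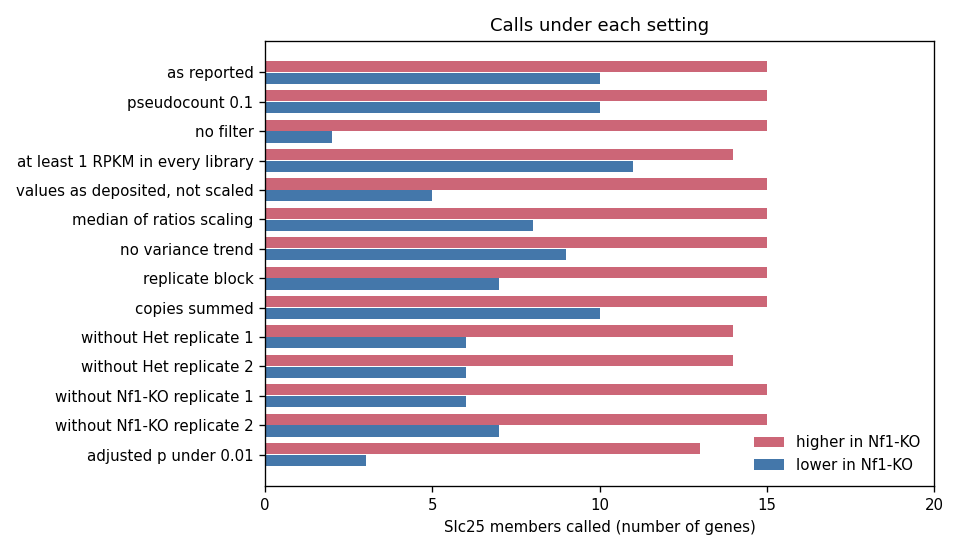
Number of carriers called higher (red) and lower (blue) in Nf1-KO under the reported settings and each alternative (horizontal axis, genes). The red bars run from 13 to 15, and the blue bars from 2 to 11.

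**Figure D2:**
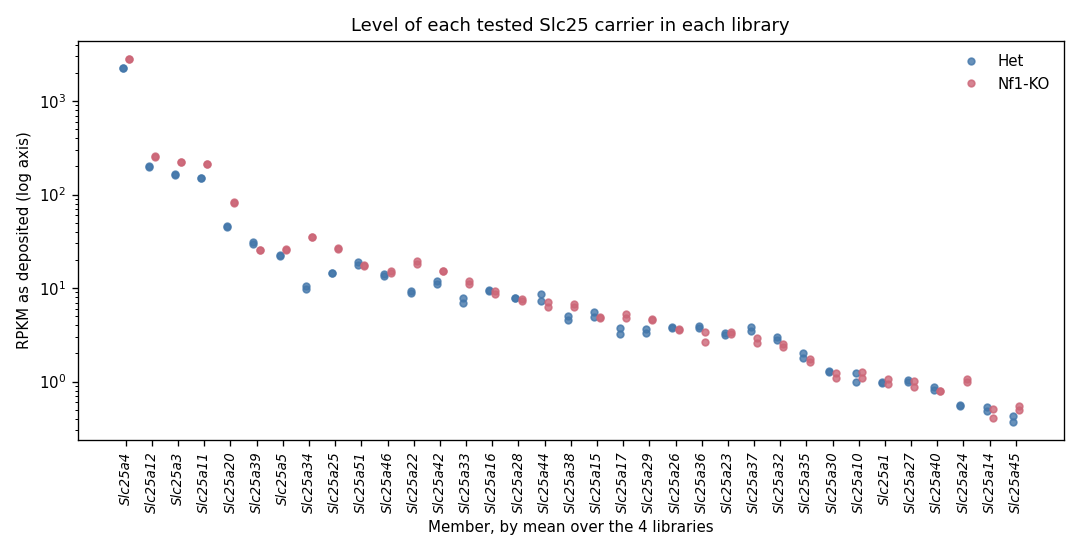
RPKM of 35 of the 36 tested carriers in each library (vertical log axis), ordered by the mean over the 4 libraries, with Het in blue and Nf1-KO in red. Slc25a4 stands at 2239.59 RPKM or more in every library, all other members lie at 256.07 RPKM or less, and the red points of Slc25a34 lie well above the blue ones.

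The family was dominated by a few members. Its summed level was 3033 and 3007 RPKM in Het and 3879 and 3864 RPKM in Nf1-KO, or 0.57% and 0.559% of a library's sum against 0.711% and 0.706%. The Nf1-KO sums lay above both Het sums, and the means of 3020 ± 18.6 and 3872 ± 10.3 RPKM (SD, n = 2) were further apart than their spread. These sums are of values as deposited, not scaled between libraries, which widens the gap. On such values Slc25a4 differed by 0.33 on the log2 scale, against 0.24 after scaling. Slc25a4 alone made up 74.3% and 74.5% of the family in Het and 73% and 73.3% in Nf1-KO, and the 6 most abundant members (Slc25a4, Slc25a12, Slc25a3, Slc25a11, Slc25a20 and Slc25a39) between 93.7% and 93.8% of it. Without Slc25a4, the family summed to 778.8 and 767.4 RPKM in Het and to 1047 and 1032 RPKM in Nf1-KO, so the rise in the sum was not carried by Slc25a4 alone. Of the 13 tested members with a mean of at least 10 RPKM, 10 were called higher, 2 lower and 1 not called (median log2 fold change 0.295), while of the 23 under that level 5 were called higher, 8 lower and 10 not called (median -0.088). Among all tested genes, 36% of those at or above that level were called higher and 33.5% lower (median 0.009), beside 76.9% and 15.4% of the members. Of all genes under that level, 20.5% were called higher and 22.2% lower (median -0.002), beside 21.7% and 34.8% of the members, so the members' share of higher calls there was near that of all genes. The split by level was chosen with these values known and is a description. The mean includes the Nf1-KO libraries, so a rise or fall in Nf1-KO helps set the side on which a gene near 10 RPKM lies. Slc25a22, for example, averaged 9.17 RPKM in Het and 18.83 RPKM in Nf1-KO. The contrast between the 2 levels is therefore partly built in.

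All 3 carriers of adenine nucleotides and phosphate that serve the ATP synthase were called higher, where 24.9% of all tested genes were. Slc25a4, the ADP/ATP translocase of heart and skeletal muscle, held 2254.43 and 2239.59 RPKM in Het and 2831.96 and 2832.03 RPKM in Nf1-KO. Its groups were far apart for their spread, with means of 2247 ± 10.5 and 2832 ± 0.0495 RPKM (SD, n = 2), a difference of 0.24 on the log2 scale (standard error, SE, 0.0136, limma adjusted p 3.7e-05). Slc25a3, which carries the phosphate that ATP synthesis needs, held 164.17 and 161.91 RPKM in Het and 224.97 and 222.42 RPKM in Nf1-KO. The groups did not overlap, and the log2 fold change was 0.36 (SE 0.019, limma adjusted p 2.7e-05). Slc25a5, the ADP/ATP translocase found in most other tissues, held 22.38 and 21.77 RPKM in Het and 25.68 and 26.32 RPKM in Nf1-KO, far less than Slc25a4. It rose least of the 3, by 0.14 on the log2 scale (limma adjusted p 0.011). Its call was lost without Het replicate 2 (log2 fold change 0.11, adjusted p 0.06). Stretches of up to 900 bases of its transcript are at least 95% identical to other annotated genes, among them Gm5529 and Gm5560, so its value is uncertain as far as they share reads.

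The ATP-Mg/phosphate carriers exchange adenine nucleotides with phosphate across the membrane and carry calcium-binding domains. Slc25a25 held 14.65 and 14.45 RPKM in Het and 26.88 and 26.36 RPKM in Nf1-KO. All values of Nf1-KO lay far above those of Het, and the log2 fold change came to 0.74 (SE 0.0297, limma adjusted p 8.9e-06). Its exons overlap those of Naif1 on the opposite strand. Slc25a24 rose from 0.55 and 0.56 RPKM to 0.98 and 1.06 RPKM, a log2 fold change of 0.34 that the pseudocount of 1 holds down at this level; with a pseudocount of 0.1 it was 0.69. Slc25a23, another carrier of this kind, held between 3.18 and 3.37 RPKM in all libraries and did not pass (log2 fold change -0.06, adjusted p 0.4).

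The acylcarnitine carrier Slc25a20 brings long-chain fatty acids, bound to carnitine, to the enzymes of oxidation in the matrix. It held 46.06 and 44.68 RPKM in Het and 83.67 and 80.9 RPKM in Nf1-KO. Both Nf1-KO libraries lay far above Het, with means of 45.37 ± 0.976 and 82.28 ± 1.96 RPKM (SD, n = 2), and the log2 fold change came to 0.75 (SE 0.0283, limma adjusted p 6.7e-06). Cpt2, which frees the fatty acid in the matrix, was called higher by 0.69 on the log2 scale, and Crat, the carnitine acetyltransferase, by 0.37. Cpt1a, which binds the fatty acid to carnitine, was called higher by 0.38. It held 2.5 and 2.37 RPKM in Het and 3.57 and 3.81 RPKM in Nf1-KO. Cpt1b was listed at 0.15 to 0.35 RPKM and Cpt1c at 0.09 to 0.17 RPKM, both under the filter. Of the Cpt1 genes, only Cpt1a was therefore tested. A low value is only a listed value in these files, so which Cpt1 gene is the main one in this muscle cannot be read from these levels.

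The tested carriers of the malate-aspartate shuttle and of glutamate were called higher. Slc25a12, the aspartate-glutamate carrier of muscle and brain, held 200.93 and 195.74 RPKM in Het and 256.07 and 250.97 RPKM in Nf1-KO, and Slc25a11, which exchanges oxoglutarate for malate, held 148.65 and 150.31 against 213.49 and 210.81 RPKM. Neither gene's groups overlapped. The log2 fold changes were 0.26 for Slc25a12 (SE 0.0217, limma adjusted p 0.00018) and 0.41 for Slc25a11 (SE 0.0194, limma adjusted p 1.7e-05), and the exons of Slc25a11 overlap those of Rnf167. The 4 enzymes of the shuttle, Got1, Got2, Mdh1 and Mdh2, were each called higher, with log2 fold changes of 0.81, 0.55, 0.58 and 0.28. These calls, and those of the carriers, stand beside 24.9% of all tested genes called higher and 25.4% called lower. Got1 held 213.24 and 212.63 RPKM in Het and 399.91 and 399.03 RPKM in Nf1-KO. The 2 enzymes of the glycerol phosphate shuttle, which serves the same purpose without any carrier of this family, were called lower: Gpd1 held 202.11 and 199.73 RPKM in Het and 119.3 and 117.83 RPKM in Nf1-KO (fell by 0.85 on the log2 scale), and Gpd2 held 21.05 and 21.85 against 8.95 and 8.44 RPKM (fell by 1.30).

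Slc25a22, which brings glutamate into the matrix together with a proton, held 8.94 and 9.4 RPKM in Het and 19.53 and 18.12 RPKM in Nf1-KO. The lower Nf1-KO library was well above the higher Het library, and the log2 fold change of 0.88 (SE 0.0475, limma adjusted p 3e-05) was the second largest of the family. Slc25a13, the aspartate-glutamate carrier of liver, held 0.24 and 0.25 RPKM in Het and 0.47 and 0.5 RPKM in Nf1-KO and was under the filter. With no filter it was called higher, at 0.23 on the log2 scale (adjusted p 0.014), while the authors' deposited table gave 0.877 with an adjusted p of 0.074. Other amino acid carriers were called higher by less: Slc25a38, a glycine carrier needed for haem synthesis, by 0.30 and Slc25a29, a carrier of basic amino acids, by 0.25; the latter lost its call without Het replicate 1 (0.19, adjusted p 0.058).

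Slc25a44, which has been linked to the uptake of branched-chain amino acids, was the only amino acid carrier called lower. It held 8.54 and 7.23 RPKM in Het and 7.1 and 6.21 RPKM in Nf1-KO, groups that were close for their spread, and its log2 fold change came to -0.30 (SE 0.0859, limma adjusted p 0.029). It did not pass in 5 of the 12 alternative fits, among them values as deposited (-0.21, adjusted p 0.084), without Het replicate 1 (-0.20, 0.12) and without Nf1-KO replicate 2 (-0.20, 0.079). The ornithine carrier Slc25a15 did not pass (log2 fold change -0.16, adjusted p 0.069). It passed without Het replicate 1, at -0.25 with an adjusted p of 0.022. The citrate carrier Slc25a1 and the dicarboxylate carrier Slc25a10, each near 1 RPKM, overlapped between the groups and did not pass, with log2 fold changes of -0.03 and -0.0048.

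Carriers of cofactors and nucleotides divided, with 3 of 9 called higher and 6 lower, beside 24.9% and 25.4% of all tested genes. The higher members were the pyrimidine nucleotide carrier Slc25a33, the peroxisomal carrier Slc25a17 and the coenzyme A carrier Slc25a42. Slc25a33 held 6.98 and 7.74 RPKM in Het and 11.9 and 11.1 RPKM in Nf1-KO, a log2 fold change of 0.50 (SE 0.0583, limma adjusted p 0.00077). Slc25a17 held 3.72 and 3.26 against 4.73 and 5.28 RPKM, a log2 fold change of 0.34 (SE 0.0711, limma adjusted p 0.0084). Neither gene's groups overlapped, though the spread of Slc25a17 was wide for its difference and its adjusted p was 0.057 with no filter. Slc25a42 rose by 0.30 on the log2 scale, from 11.5 ± 0.622 to 15.29 ± 0.141 RPKM (SD, n = 2). Exons of Slc25a33 overlap those of Gm13068 on the opposite strand.

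Slc25a36, the second pyrimidine nucleotide carrier, held 3.91 and 3.77 against 2.67 and 3.38 RPKM, a log2 fold change of -0.34 (SE 0.086, limma adjusted p 0.017), and its Nf1-KO libraries lay further apart than its Het libraries. A stretch of 544 bases of its transcript is nearly identical to Gm13217. Slc25a32, a folate carrier, held 2.79 and 3.03 against 2.34 and 2.53 RPKM, a log2 fold change of -0.26 (SE 0.0594, limma adjusted p 0.013). Neither of these 2 genes overlapped between the groups, and neither was called with no filter (adjusted p 0.095 and 0.056). Slc25a36 also lost its call without Het replicate 1 (-0.33, adjusted p 0.082), and Slc25a32 without Het replicate 2 (-0.21, 0.057) or Nf1-KO replicate 1 (-0.21, 0.065).

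The NAD carrier Slc25a51 held 18.88 and 17.81 RPKM in Het and 17.53 and 17.09 RPKM in Nf1-KO, groups set apart by less than the distance between the Het libraries. Its log2 fold change came to -0.17 (SE 0.0379, limma adjusted p 0.012). Its call was lost on values as deposited (-0.08, adjusted p 0.13), with no filter (0.05) and without Het replicate 1 (-0.14, 0.053). Slc25a16, linked to coenzyme A, held 9.54 and 9.29 against 8.64 and 9.35 RPKM and overlapped between the groups as deposited; its log2 fold change after scaling was -0.15 (SE 0.0461, limma adjusted p 0.04). The S-adenosylmethionine carrier Slc25a26 was close to the threshold as well (-0.14, adjusted p 0.046). With the values as deposited, Slc25a16 and Slc25a26 were at -0.06 and -0.06, with adjusted p-values of 0.32 and 0.27. Slc25a26 lost its call with any 1 of the 4 libraries left out (adjusted p 0.099 to 0.2), and Slc25a16 passed only without Nf1-KO replicate 2 (0.022; the others 0.072 to 0.23).

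Of the carriers of iron and glutathione, 3 of 4 were called lower, where 25.4% of all tested genes were. Their summed level was 43.03 and 42.15 RPKM in Het and 36.7 and 36.55 RPKM in Nf1-KO. Slc25a39, which brings glutathione into mitochondria, held 30.8 and 29.8 RPKM in Het and 25.69 and 25.48 RPKM in Nf1-KO. Both Nf1-KO libraries lay below both Het libraries, and the log2 fold change came to -0.33 (SE 0.0289, limma adjusted p 0.00023). Slc25a37 (mitoferrin-1, the iron importer best known from red cell precursors) held 3.46 and 3.81 RPKM in Het and 2.89 and 2.59 RPKM in Nf1-KO, a log2 fold change of -0.38 (SE 0.0658, limma adjusted p 0.004). Of the 10 members called lower, these 2 passed in each of the 12 alternative fits and at an adjusted p under 0.01. Erythroid marker genes summed to between 1.37 and 1.78 RPKM in each library, with Hbb-b1 and Hba-a2 listed at 0 and Alas2 the only marker tested (1.37 to 1.77 RPKM, adjusted p 0.13). Slc25a28, the mitoferrin of other tissues, was at -0.14 (adjusted p 0.034; -0.05 and 0.33 on values as deposited; adjusted p 0.055 to 0.2 with any 1 of the 4 libraries left out), and Slc25a40, the paralog of Slc25a39, did not pass (-0.08, adjusted p 0.29).

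Slc25a34 stood apart from the rest of the family in the size of its change. It held 10.64 and 9.86 RPKM in Het and 34.98 and 35.02 RPKM in Nf1-KO, with means of 10.25 ± 0.552 and 35 ± 0.0283 RPKM (SD, n = 2). The Nf1-KO libraries were nearly equal and lay far above Het. Its log2 fold change of 1.59 (SE 0.0398, limma adjusted p 1.5e-06) was the only one of the family beyond 1 in either direction, and it ran from 1.54 to 1.68 over the alternatives. Of the other members without a settled substrate or with other roles, Slc25a35, Slc25a45 and Slc25a46, an outer membrane protein, did not pass. Their log2 fold changes were -0.17, 0.09 and 0.01. Slc25a35 passed with 1 RPKM required in every library (limma adjusted p 0.04) and with a variance not following the level (0.047). Without Het replicate 1 its log2 fold change was -0.23. The 3 relatives of the uncoupling proteins in this naming, Slc25a14, Slc25a27 and Slc25a30, lay between 0.41 and 1.29 RPKM, and their log2 fold changes from -0.12 to -0.08 did not pass.

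**Figure D3:**
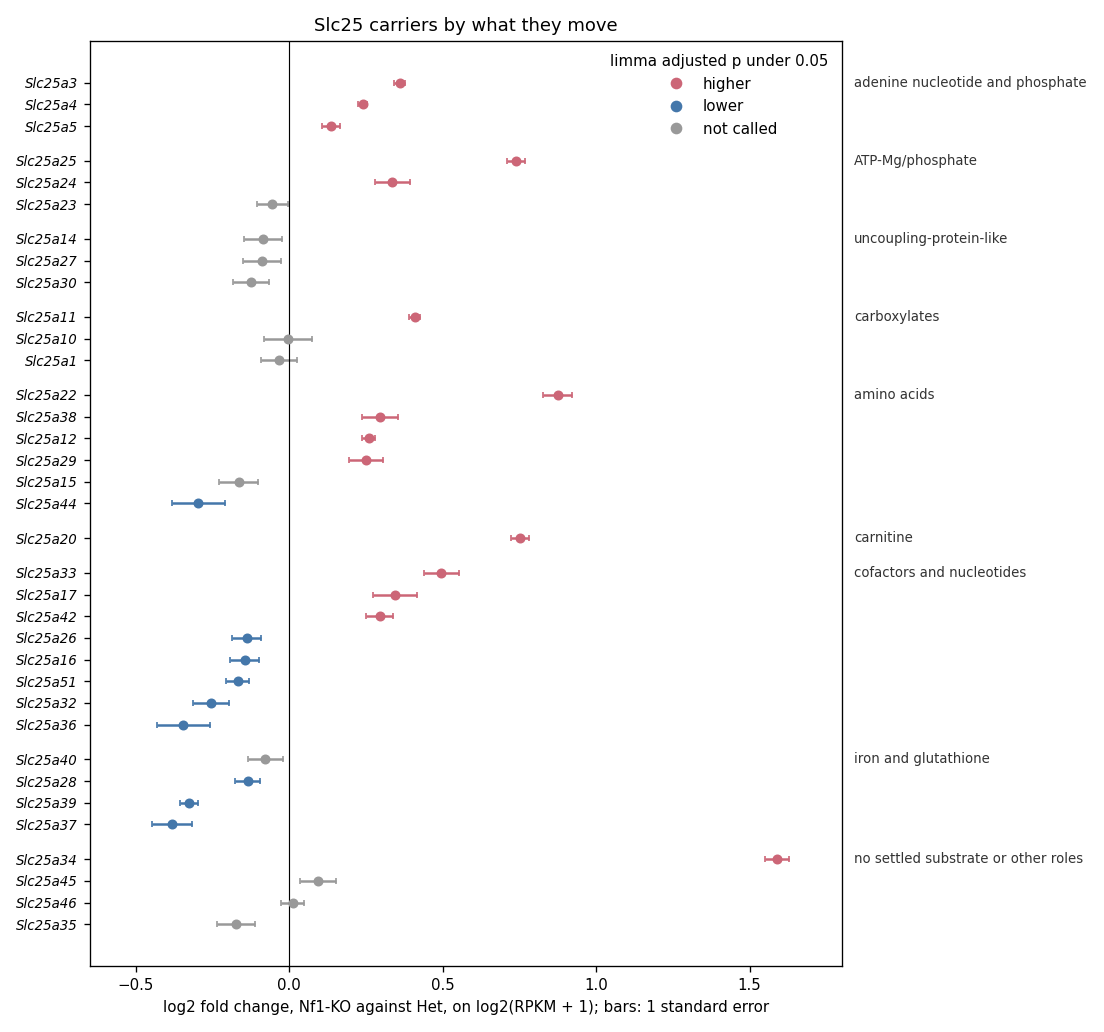
Log2 fold change of Nf1-KO against Het on log2(RPKM + 1) for 35 of the 36 tested carriers, with bars of 1 standard error, grouped by what the carrier moves. Red and blue mark calls at a limma adjusted p under 0.05. The adenine nucleotide and phosphate group and the carnitine carrier lie to the right of 0, and the iron and glutathione carriers to the left. The ATP-Mg/phosphate group and the cofactor carriers lie on both sides.

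Promoter windows of the members were read from RefSeq (GRCm38.p6; 250 bases before to 50 after a gene's start), in which 34 of the 45 members had 44 windows. Shown here are the windows of Slc25a34, the member with the largest increase, and of Slc25a39, the decrease with the smallest adjusted p, because both hold the half-site AGGTCA that nuclear receptors bind, and the window of Slc25a4, the most abundant member, which does not. Capitals mark the half-site, here on the opposite strand as TGACCT.

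Slc25a34, chr4:141623785-141624084, minus strand: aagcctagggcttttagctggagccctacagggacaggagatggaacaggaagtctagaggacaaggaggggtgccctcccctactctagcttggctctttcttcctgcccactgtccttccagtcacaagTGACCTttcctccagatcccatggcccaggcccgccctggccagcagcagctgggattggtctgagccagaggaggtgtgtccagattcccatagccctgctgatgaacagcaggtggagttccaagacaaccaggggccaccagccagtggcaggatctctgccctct

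Slc25a39, chr11:102407468-102407767, minus strand: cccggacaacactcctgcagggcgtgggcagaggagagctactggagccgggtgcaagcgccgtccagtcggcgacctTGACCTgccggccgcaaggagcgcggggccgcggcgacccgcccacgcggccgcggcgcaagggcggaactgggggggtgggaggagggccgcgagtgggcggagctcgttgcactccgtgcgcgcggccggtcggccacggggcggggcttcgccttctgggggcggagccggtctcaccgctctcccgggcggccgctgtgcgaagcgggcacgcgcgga

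Slc25a4, chr8:46211013-46211312, minus strand: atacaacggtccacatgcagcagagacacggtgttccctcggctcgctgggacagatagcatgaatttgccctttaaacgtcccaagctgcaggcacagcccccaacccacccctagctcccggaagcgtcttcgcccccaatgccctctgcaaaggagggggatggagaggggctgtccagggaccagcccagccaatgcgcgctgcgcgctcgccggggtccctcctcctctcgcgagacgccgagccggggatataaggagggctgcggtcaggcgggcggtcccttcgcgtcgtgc

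The half-site, searched on both strands, was in 3 of the 44 member windows (6.82%; the third gene was Slc25a45) and in 16.26% of all 32851 windows. It starts at base 132 of the Slc25a34 window and at base 79 of the Slc25a39 window. The longer letters TNAAGGTCA, the response element of estrogen-related receptors, which contain the half-site, were in 0 member windows and in 1.28% of all windows. The NRF1 palindrome of 10 letters (GCGCA joined to its reverse complement) was in 0 member windows and in 0.97% of all. A match of letters is not a bound site, and the search says nothing of sequence outside these windows. The same half-site stood in a window of a gene that was higher and of one that was lower.

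Ratios between related carriers were taken within each library, where scaling between libraries drops out. The ratio of Slc25a33 to Slc25a36, the 2 pyrimidine carriers, was 1.79 and 2.05 in Het and 4.46 and 3.28 in Nf1-KO. That of Slc25a25 to Slc25a23 was 4.61 and 4.33 in Het and 8.27 and 7.82 in Nf1-KO. Both pairs therefore moved apart, with no overlap between the groups. Slc25a25 to Slc25a24, in contrast, was 26.6 and 25.8 in Het and 27.4 and 24.9 in Nf1-KO, which overlapped. The muscle form of the ADP/ATP carrier stayed far above the other: Slc25a4 to Slc25a5 was 101 and 103 in Het and 110 and 108 in Nf1-KO. Slc25a12 to Slc25a13 fell from 837 and 783 to 545 and 502, a ratio whose lower member has under 1 RPKM. Slc25a22 to Slc25a12 rose from 0.0445 and 0.048 to 0.0763 and 0.0722. Mitoferrin-2 to mitoferrin-1 (Slc25a28 to Slc25a37) was 2.28 and 2.03 against 2.53 and 2.97. With 2 libraries a group, an exact permutation test of such a ratio cannot go below p = 0.333, and none is given.

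**Figure D4:**
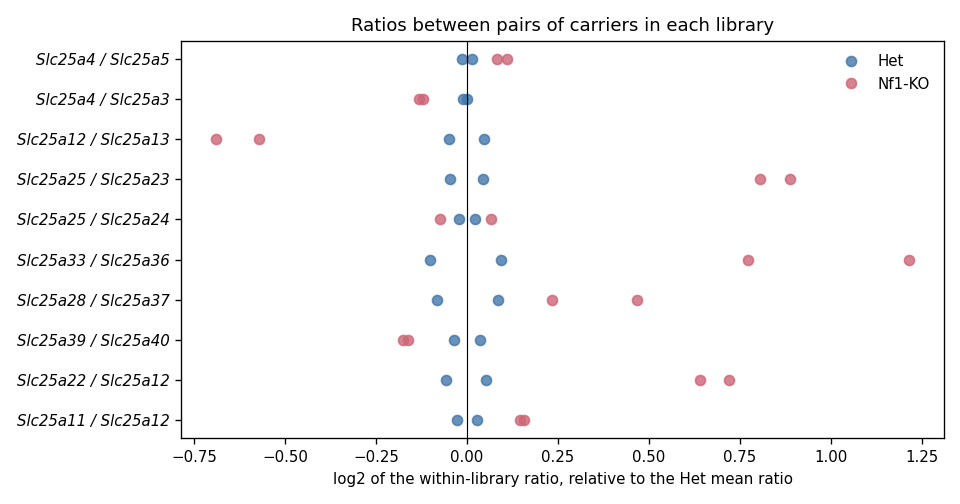
Ratio of the RPKM of one carrier to that of another within each library, as log2 relative to the mean ratio of Het (horizontal axis), for 10 pairs, with Het in blue and Nf1-KO in red. Only Slc25a25 to Slc25a24 has overlapping groups among these pairs.

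Some values are uncertain as far as other genes share reads. Transcripts of Slc25a20 and Slc25a37 hold stretches of up to 366 and 382 bases at least 95% identical to other annotated genes, and exons of Slc25a37 overlap those of Gm31748. Other members hold such stretches too. That of Slc25a51 shares stretches of up to 161 bases with 53 other genes, and its exons overlap those of Gm25692 on the same strand. That of Slc25a12 shares a stretch of 247 bases with Adpgk. The 9 members under the filter were low throughout. Slc25a13 reached 0.5 RPKM in 1 library, and Slc25a2, Slc25a18, Slc25a21, Slc25a41, Slc25a43, Slc25a48, Slc25a53 and Slc25a54 had at most 0.06 RPKM in any library. A low or zero value is only a listed value in these files, since Smdt1 and Timm8b, genes that most cells use, are also listed at 0. RefSeq gives Mcart6 as another name of Slc25a53, and the files hold a row for each: Mcart6 was 0.12 and 0.14 RPKM in Het and 0.17 and 0.26 RPKM in Nf1-KO, so the reads of this gene may be divided between them.

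Of the genes of the same family with other symbols, 4 of 4 tested were called higher, where 24.9% of all tested genes were. Ucp3, the uncoupling protein of skeletal muscle, held 76.37 and 74.65 RPKM in Het and 125.76 and 126.34 RPKM in Nf1-KO, and Ucp2, its relative in many cell types including immune cells, 7.5 and 6.97 against 13.29 and 11.97 RPKM. Both had a log2 fold change of 0.64 and no overlap between groups; the immune markers given above moved with Ucp2, and their part in it was not tested. Mtch1 and Mtch2, carrier-like proteins of the outer membrane, rose by 0.40 and 0.20 on the log2 scale. Ucp1, the uncoupling protein of brown fat, was listed at 0 in every library.

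Other transport genes of mitochondria, of which 18 of 23 were tested, had 6 called higher and 4 lower (median log2 fold change 0.086). These shares of 33.3% and 22.2% lie near the 24.9% and 25.4% of all genes. Among those called, Sfxn3, a sideroflexin, fell by 0.89, Abcb6, a porphyrin transporter, by 0.43 and Tspo, a protein of the outer membrane, by 0.35 on the log2 scale. Vdac3 was called lower as well, at -0.07 after scaling (limma adjusted p 0.019). As deposited, Vdac3 held 268.45 and 268.83 RPKM in Het and 270.95 and 275.69 RPKM in Nf1-KO, so its Nf1-KO values were not the lower ones. With values as deposited, 13 genes of this list were called, against 10 after scaling. The pyruvate carrier subunit Mpc1 rose by 0.19, while Mpc2 did not pass (0.08, adjusted p 0.097). The outer membrane channel Vdac1 rose by 0.13, and the calcium uniporter Mcu and its regulator Micu2 by 0.23 and 0.30. Of the proteins that import the carriers themselves, 7 of 10 were tested and only Timm22, the channel subunit, was called, at -0.22 (adjusted p 0.0068); 4 of the 7 were called on values as deposited, and 2 without Het replicate 1, Nf1-KO replicate 1 or Nf1-KO replicate 2. Of 18 enzymes listed as partners of the carriers, 15 were tested, with 12 higher (80%) and 2 lower (13.3%) and a median of 0.369. Of all tested genes, 24.9% were called higher and 25.4% lower. The 2 lower ones were Gpd1 and Gpd2, whose shuttle uses no carrier of this family. Among the higher ones, Ckmt2, the mitochondrial creatine kinase that works beside the ADP/ATP carrier, held 867.74 and 852.58 RPKM in Het and 1289.55 and 1264.04 RPKM in Nf1-KO, and the citrate synthase Cs rose by 0.32 on the log2 scale.

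Other large sets of mitochondrial genes give a frame for these counts. Of 36 tested subunits of complex I, 32 were called higher and 2 lower (median log2 fold change 0.232), and of 73 tested mitochondrial ribosomal proteins, 30 were called higher and 9 lower (0.063). These counts stand beside 15 and 10 of 36 carriers (41.7% and 27.8%), and beside 24.9% and 25.4% of all tested genes. The difference between the sets was not tested.

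The authors' deposited table, in the layout of DESeq2 output, is a second treatment of the same libraries. It lists 37 of the 45 members and calls 13 higher and 7 lower at an adjusted p under 0.05, where 15% and 16.6% of its 13985 rows were called. All 20 of these members were also called here with the same sign. The 5 members called here only were Slc25a5 and Slc25a29, which were higher, and Slc25a16, Slc25a26 and Slc25a28, which were lower. In the authors' deposited table, Slc25a34 had a log2 fold change of 1.67, Slc25a22 0.928, Slc25a25 0.765, Slc25a20 0.753 and Slc25a37 -0.517. Of 36 members in both sources, 35 had the same sign, the exception being Slc25a46, at -0.001 there and 0.01 here. The mean normalised count in the authors' deposited table gives the depth behind these values: 183756.9 for Slc25a4, 3297.4 for Slc25a34, 711.1 for Slc25a37 and 125.1 for Slc25a24.

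**Figure D5:**
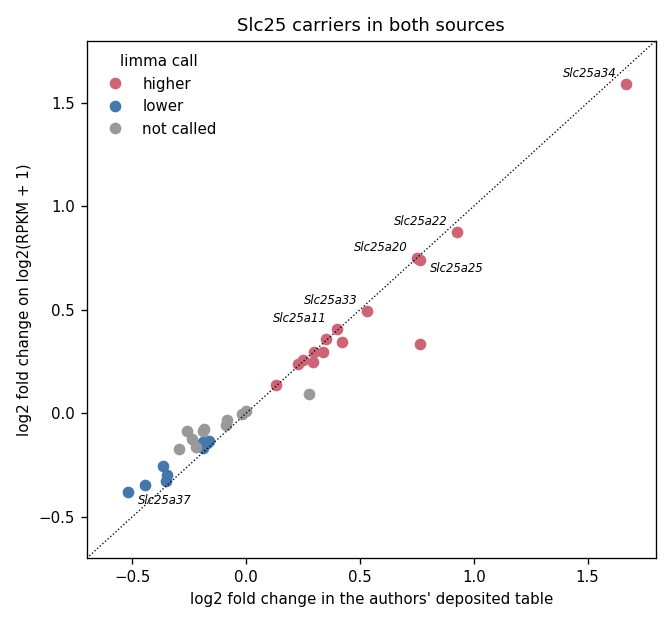
Log2 fold change of 35 of the 36 tested carriers in the authors' deposited table (horizontal axis) and on log2(RPKM + 1) after scaling (vertical axis), with the limma call in colour and a dotted line of equality. The point furthest from the line is Slc25a24, at 0.764 and 0.34, a low gene whose change the pseudocount holds down.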

How the data were processed

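RNA of muscle (2 libraries of Het, 2 of Nf1-KO) was prepared with a TruSeq RNA kit, per the labels' protocols. Per the submitters' processing notes, STAR 2.4.2a, DESeq2 and genome build mm9 were used; how genes were counted, the annotation and the strandedness are not given in the sources used here. The deposited gene values carry no unit; from their range they were read as RPKM computed by the authors. The authors' deposited table holds, per the file headers, a signal (mean over libraries of counts divided by size factors), a log2 fold change with its standard error, a test score, and a p-value before and after adjustment. That table sums to 49580600 mean normalised counts.

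From 34682 rows per library, 33 named by a number were left out and the highest of any copies of a name was kept (32868 names; the members have no copies). Libraries were scaled to their geometric mean by a trimmed mean of log ratios, each gene weighing alike (at each end, 30% by ratio and 5% by abundance were trimmed; factors 0.969, 0.967, 1.03 and 1.03). The 10690 genes that reached 0.5 RPKM in 2 or more libraries were fitted on log2(RPKM + 1) by limma 3.58.1 (R 4.3.3), letting the variance follow the level, two-sided, with Benjamini-Hochberg adjustment over all of them; fold changes on this scale understate those of low genes. Sums, means and SD are of values as deposited. The fit was also run on simulated data with far fewer changed genes than were called here, and no result is drawn from it. Alternatives were other pseudocounts, filters, scalings, thresholds, a replicate block, summed copies and leaving out each library. Alternatives for the other gene lists were chosen after seeing the data. The members and the gene lists were chosen with earlier results of these data known. Statistics in full were given for the 8 largest increases and 8 largest decreases among called members and the 6 most abundant members; the half-site was searched after the 2 longer motifs. No batch is given in the labels. Overlapping exons (13 members) and stretches of at least 100 bases with at least 95% identity to another gene (12 members) were looked up in GENCODE M21 (GRCm38), which is not the authors' build, so no gene coordinates are given; the promoter windows have those of RefSeq. Protein sequences were not used here. The values of 1 tested carrier, called lower, and of 1 partner enzyme are counted but not reported here.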

Additional observations from a re-analysis of the deposited data

How the results depend on the processing

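Over the 36 members and 12 alternative fits, where a member could be tested, 368 values kept their direction and their side of the threshold, 40 lost a call, 4 gained one and 9 turned sign. The count of higher members stayed within 1.5 times throughout (13 to 15), and 11 of the 15 passed in all 12 fits. Slc25a24 was under the filter of 1 RPKM in every library and passed in the 11 fits that tested it; Slc25a5, Slc25a17 and Slc25a29 each lost 1. The count of lower members, 10, was 2 with no filter (more low genes tested), 5 with values as deposited, 3 at an adjusted p under 0.01, and 6 to 7 when a library was left out; only Slc25a37 and Slc25a39 passed in all 12 fits. For the loss of calls the cause was not tested. The carrier import genes called rose from 1 to 4 with values as deposited, 2 with median-of-ratios scaling, 2 with the replicate block, and 1 to 2 when a library was left out.

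The members that turned sign had no call in either setting: with values as deposited, Slc25a1 (0.0139), Slc25a10 (0.0452) and Slc25a23 (0.0169); with median-of-ratios scaling, Slc25a10 (0.0012); and with 1 library left out, Slc25a1 (-0.0699 to 0.0134), Slc25a10 (-0.0914 to 0.0752) and Slc25a46 (-0.0201 to 0.0505). No pairing by replicate number was seen (correlation of deviations -0.0185 over 4462 genes, 2 pairs). In the fit with a replicate block, 15 members were called higher and 7 lower; Slc25a16, Slc25a26 and Slc25a28 lost their calls at -0.15, -0.14 and -0.14. With 2 libraries a group, values rounded to 2 decimals give the members under 1 RPKM the least precision.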
